A study of Mus musculus with 32 samples.

Results

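Serpins and whey acidic protein (WAP) domain proteins are the main families of small and large protein inhibitors that hold serine proteases in check, and their transcripts were followed here in mouse intestinal crypts and adenomas. The members were all probes on the Illumina MouseWG-6 v2 beadchip whose platform gene symbol was a numbered Serpina to Serpini gene, a numbered Wfdc gene, or Slpi, and whose signal was detected (detection p under 0.01) on 1 or more arrays. This gave 43 probes for 32 genes, out of 17617 probes with 1 gene name for 11492 genes. Of the 32 genes, 10 were Serpina genes, 8 were Serpinb genes, 6 were other serpins and 8 were WAP genes (Slpi and 7 Wfdc genes). The gene annotation used covered only the probes of the deposited value table, so no named probe lay outside the detection limit, and 4 genes lay just inside it, with a signal on 1 array each (Serpinb1c, Serpinb3c, Serpinb6c and Serpini2).

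Serpins trap their protease by offering a reactive loop as bait, after which enzyme and inhibitor remain joined and are cleared together. Serpina and most other serpins are secreted, and several circulate as plasma proteins made by the liver, whereas Serpinb proteins lack a signal peptide and act inside cells. WAP proteins are short secreted proteins held by disulphide bonds. Slpi among them blocks neutrophil elastase at mucosal surfaces, while many Wfdc proteins have no settled target.

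The 32 arrays came from C57BL/6J mice of 120 days, each sample being 1 array of RNA mostly pooled from several extractions of 1 mouse. The crypt groups were EDTA-dissociated intestinal epithelium from wt mice without Cre (n = 3), wt mice with villin.Cre/+ (n = 3), Pygo1/2 DKO mice (Pygo1-/-, Pygo2 LoxP/LoxP, villin.Cre/+; n = 3) and Bcl9/B9l DKO mice (both genes LoxP/LoxP, villin.Cre/+; n = 3). The adenoma groups were whole excised tumours, all carrying ApcMin/+: ApcMin alone without Cre (n = 9), ApcMin with the Pygo1/2 DKO alleles (n = 5), ApcMin with the Bcl9/B9l DKO alleles (n = 3) and ApcMin with all of these alleles and villin.Cre/+ (QKO; n = 3). Villin.Cre deletes floxed genes in intestinal epithelium, so that the stroma of the adenomas kept Pygo2, Bcl9 and B9l, whereas Pygo1-/- was a germline null. Batch 2 of the labels held the QKO arrays and 3 of the ApcMin arrays (replicates 4, 6 and 8), and batch 1 held all others. QKO adenomas are therefore set against the batch 2 ApcMin arrays, and all other groups against batch 1. The ApcMin controls lacked Cre, and Cre itself cannot be told apart from the deletions in these adenoma comparisons.

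Levels below are log2 normalised intensities, and a change is the difference of group means within a batch with its standard error (SE). Where both batches entered a fit, its SE and p-value also drew on the spread of the ApcMin arrays of the other batch. The arrays of batch 1 had mean raw intensities of 307 to 445 and those of batch 2 of 156 to 217. Across the series, each array detected 12913 to 16319 probes. The Pygo2 probe was lower in both Pygo1/2 DKO groups (7.81 to 8.42 in crypts against 9.44 to 9.72 with villin.Cre alone), and in QKO adenomas it was 9.62 to 9.83 against 9.86 to 10.49 in their ApcMin controls. The Bcl9l probe was not lower in Bcl9/B9l DKO crypts (7.40 to 7.91 against 7.50 to 7.66) and overlapped between Bcl9/B9l DKO and ApcMin adenomas, as did the brightest Bcl9 probe (6.51 to 7.11 against 6.80 to 7.14 in crypts). In QKO adenomas both lay wholly above their ApcMin controls and so against the label, at 8.25 to 8.40 against 8.12 to 8.21 for Bcl9l and 8.63 to 9.03 against 7.87 to 8.05 for Bcl9. Whether these probes lie within the deleted parts is not known here, and the names Bcl9/B9l DKO and QKO stand throughout for the libraries so labelled. Transcripts of other tissues stood out. The arrays of Bcl9/B9l DKO adenomas 1 and 3 detected all 9 pancreatic acinar genes of a marker list. Their summed level was 17.48 and 14.81, against 7.82 in replicate 2. The acinar sum was 9.92 to 12.18 in batch 1 ApcMin adenomas and 9.85 to 12.66 in Pygo1/2 DKO adenomas. In these groups 7 and 8 of the 9 genes were detected on no array. All adenoma groups carried stromal and myeloid transcripts most of which were undetected in crypts. The epithelial marker sum was 16.13 to 16.34 in crypts and 15.79 to 16.16 in adenomas. Results on Bcl9/B9l DKO adenomas are given with and without arrays 1 and 3.

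**Figure D1:**
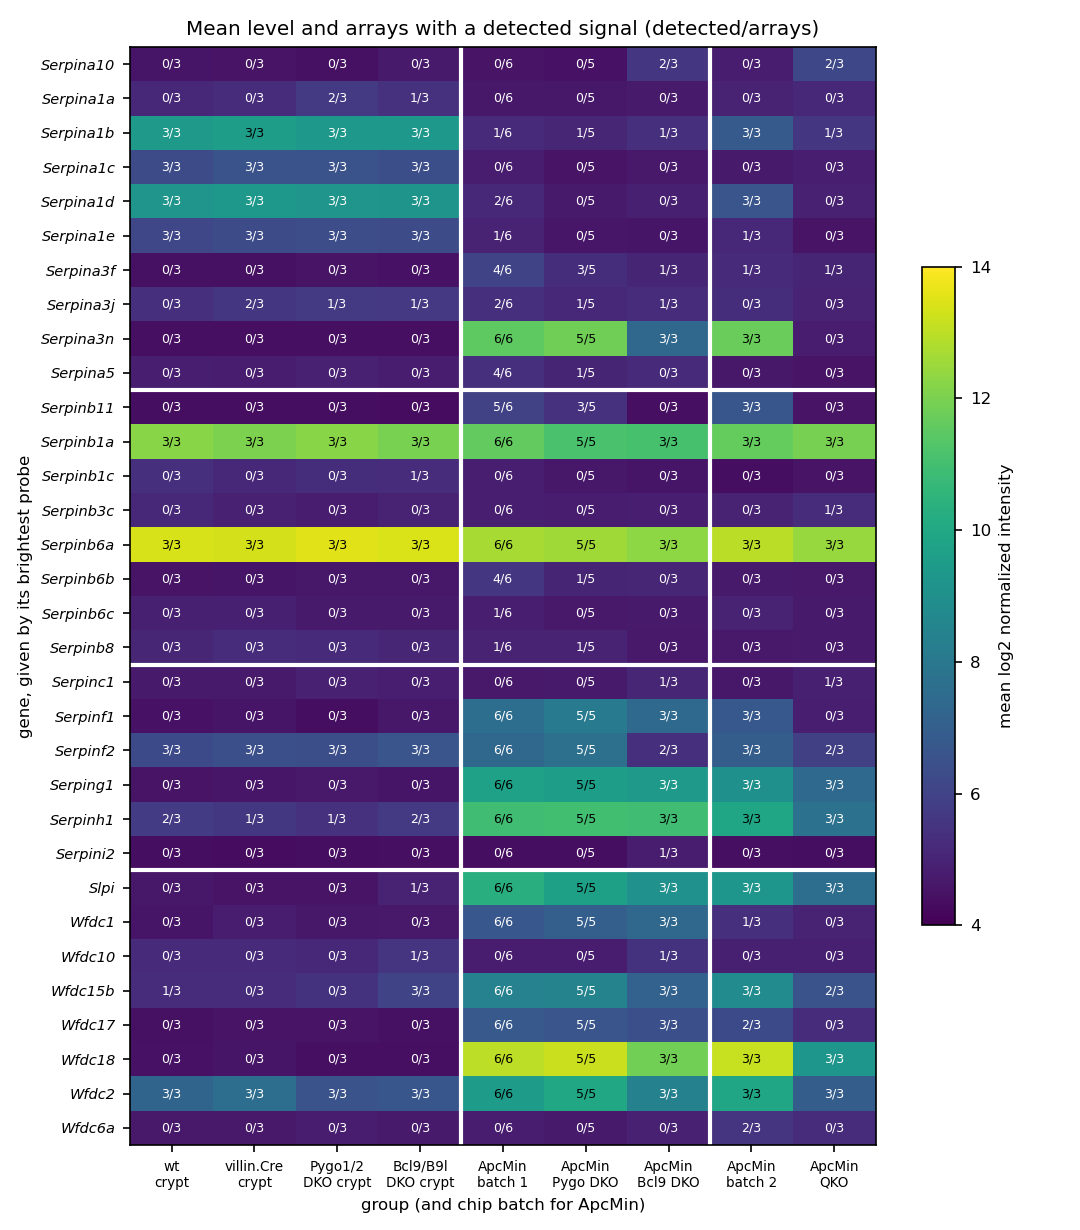
Mean log2 normalised intensity of each of the 32 genes (rows, brightest probe, ordered by subfamily) in each group (columns, the ApcMin adenomas by batch), with the number of arrays on which the probe was detected over the number of arrays. Serpinb1a, Serpinb6a and Wfdc2 were detected on all 32 arrays, and the Serpina3n and Wfdc18 rows change from undetected on all 12 crypt arrays to detected on all ApcMin adenoma arrays. Slpi was detected on 1 of the 12 crypt arrays.

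Most members lie in gene clusters, which matters for reading their probes. All 10 Serpina genes are on chromosome 12, the Serpinb genes are on chromosomes 1 and 13, Slpi lies with Wfdc2, Wfdc6a, Wfdc10 and Wfdc15b on chromosome 2, and Wfdc17 and Wfdc18 are neighbours on chromosome 11. The Serpina1a to Serpina1e genes are recent copies of 1 gene and nearly the same in sequence, so a probe named for one of them may read several, and the same holds within the Serpina3 and Serpinb6 families. Start-site sequences of 300 bases (250 before to 50 after the start, RefSeq, GRCm38.p6) were found for 28 of the 32 genes. Serpina1b and Serpina1d shared 64.8% of bases at the best ungapped offset, and Serpina1a and Serpina1c shared 94.9%. Without gaps, a short insertion or deletion puts the bases beyond it out of register, so these shares can understate likeness. The Serpina1b and Serpina1d windows below share long runs of bases on both sides of such a difference. The pair that was high in crypts (Serpina1b and Serpina1d) and the 3 genes with marked falls in the knockout adenomas (Serpina3n, Wfdc18 and Serpinb11) are shown to give the promoters of the members the results turn on. Capitals mark matches on either strand to CTTTGAA or CTTTGAT (TCF/LEF), TTCNNNGAA (STAT), TGANTCA (AP-1) or TATAAA (core promoter), none of which overlap here.
Serpina3n, chr12:104406458-104406757, plus strand: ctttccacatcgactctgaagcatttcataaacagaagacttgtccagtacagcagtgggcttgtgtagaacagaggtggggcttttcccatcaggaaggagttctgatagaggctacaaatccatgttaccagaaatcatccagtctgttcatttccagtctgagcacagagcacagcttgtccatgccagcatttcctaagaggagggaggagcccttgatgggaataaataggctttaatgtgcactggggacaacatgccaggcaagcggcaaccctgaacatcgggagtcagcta
Wfdc18, chr11:83708754-83709053, plus strand: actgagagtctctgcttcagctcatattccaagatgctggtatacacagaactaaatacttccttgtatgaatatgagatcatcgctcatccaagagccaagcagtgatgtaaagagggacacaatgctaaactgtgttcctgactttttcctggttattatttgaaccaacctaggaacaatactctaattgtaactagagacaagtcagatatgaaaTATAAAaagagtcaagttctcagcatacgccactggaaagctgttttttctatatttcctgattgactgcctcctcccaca
Serpinb11, chr1:107362064-107362363, plus strand: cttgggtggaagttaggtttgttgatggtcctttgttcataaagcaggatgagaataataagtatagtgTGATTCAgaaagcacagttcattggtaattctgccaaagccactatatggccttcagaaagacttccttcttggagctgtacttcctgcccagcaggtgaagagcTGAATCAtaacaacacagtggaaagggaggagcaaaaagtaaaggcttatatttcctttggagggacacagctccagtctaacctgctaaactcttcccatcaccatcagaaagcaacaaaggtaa
Serpina1b, chr12:103738140-103738439, minus strand: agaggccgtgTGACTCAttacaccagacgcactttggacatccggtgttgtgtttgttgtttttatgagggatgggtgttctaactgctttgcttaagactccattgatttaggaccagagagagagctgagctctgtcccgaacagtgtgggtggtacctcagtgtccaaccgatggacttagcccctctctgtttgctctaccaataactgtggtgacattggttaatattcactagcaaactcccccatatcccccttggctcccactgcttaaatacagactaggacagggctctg
Serpina1d, chr12:103773584-103773883, minus strand: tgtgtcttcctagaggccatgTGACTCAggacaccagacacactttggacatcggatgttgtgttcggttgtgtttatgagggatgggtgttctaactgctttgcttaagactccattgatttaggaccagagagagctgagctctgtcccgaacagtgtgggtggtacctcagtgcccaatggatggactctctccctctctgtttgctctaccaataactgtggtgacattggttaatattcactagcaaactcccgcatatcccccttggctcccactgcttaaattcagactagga
Serpina1b and Serpina1d each held 1 AP-1 match, Serpinb11 held 2, and the Wfdc18 window held a TATA box match at -31. AP-1 matches were found in 6 of the 28 member windows and in 7.93% of 27025 gene windows. The 6 were Serpinb8, Serpinb11 and the gene copies Serpina1a, Serpina1b, Serpina1c and Serpina1d (between -240 and -229). As recent copies of 1 gene, the Serpina1 windows are not independent, and the share is a description. The TATA box letters were in 6 member windows and in 14.2% of all windows. CTTTGAA was in no member window and CTTTGAT in 1, that of Wfdc17, against 5.27% and 3.72% of all windows. STAT matches were in 2 member windows (Serpina3f and Serpinb6a) and in 8.47% of all. The Serpina3n window held none of these letters, which says nothing of sites elsewhere in the gene.

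The first comparison asks how adenomas initiated by ApcMin differ from normal crypts. ApcMin adenomas carried high levels of Wfdc18, Serpina3n, Slpi, Serping1 and Serpinh1, most of them undetected in wt crypts, while the alpha1-antitrypsin genes Serpina1b and Serpina1d, bright in crypts, were near background. Of the 32 genes, 25 passed the filter of detection on 1 or more of the compared arrays, and 14 of these were higher, 5 were lower and 6 did not pass (limma, adjusted p under 0.01). This was a comparison in which 38.3% of all 19002 probes tested were called, 18.3% higher and 20% lower. The filter keeps a gene that is high in 1 group only, so these counts are a description. The median change over the 25 genes was 1.07, and over all probes it was -0.08. By subfamily, 6 of 7 WAP genes and 4 of 4 other serpins were higher, whereas Serpina genes split into 2 higher and 3 lower of 8 and Serpinb genes into 2 higher and 2 lower of 6.

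Wfdc18 is a WAP protein first described as a proteinase inhibitor of the mammary gland. Its level in wt crypts was 4.48, 4.48 and 4.45, undetected on each array as on the other 9 crypt arrays, and in batch 1 ApcMin adenomas it ran from 12.53 to 13.61 with a median of 12.99. Every adenoma array lay far above every crypt array. The change was 8.54 ± 0.24 (SE; adjusted p = 3.1e-11), at least 161-fold when each undetected array is set at its lowest detected signal. Changes against a group with no detected array are differences from background, and where both groups are of 1 batch a bound of this kind is given beside them if it is above 1.

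Serpina3n, a secreted serpin that in the mouse inhibits neutrophil elastase and granzyme B, was likewise undetected on the crypt arrays. It measured 4.44, 4.39 and 4.40 in wt crypts, with no detected signal, against 9.93 to 12.49 (median 11.80) in batch 1 ApcMin adenomas. The groups did not overlap, although the adenomas were widely spread. The change was 7.13 ± 0.47 (adjusted p = 5.2e-08), at least 57.9-fold. Its neighbour Serpina3f was detected on 4 of 6 ApcMin arrays and on no crypt array, with a change of 1.62 ± 0.43, at least 1.30-fold (adjusted p = 0.00612, over 0.01 when any wt crypt array or ApcMin array 3 or 9 was left out).

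Slpi, the elastase inhibitor of mucosal secretions, was undetected in wt crypts (4.76, 4.51 and 4.66) and ran from 9.86 to 10.85 (median 10.06) in batch 1 ApcMin adenomas. The change was 5.64 ± 0.25 (adjusted p = 1.6e-09), at least 24.2-fold. Slpi was detected on 1 of the 12 crypt arrays, Bcl9/B9l DKO crypt 3, at 5.69. Wfdc2, known as HE4 and secreted by many epithelia, differed from these in being present in crypts: it was 7.36, 7.22 and 7.08 in wt crypts and 8.50 to 10.44 (median 9.45) in ApcMin adenomas, a change of 2.28 ± 0.36 (adjusted p = 0.000164). The groups again did not overlap. Wfdc15b was detected on 1 of 3 wt crypt arrays and on all 6 ApcMin arrays, with a change of 3.15 ± 0.45 (adjusted p = 6.67e-05). Wfdc17, which is expressed by activated macrophages and microglia in the mouse, and Wfdc1 were undetected in crypts and rose by 2.35 ± 0.28 and 2.14 ± 0.30 (adjusted p = 1.56e-05 and 5.65e-05), at least 2.18-fold and 2.05-fold.

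The serpins outside the Serpina and Serpinb families that rose were Serping1, Serpinh1, Serpinf1 and Serpinf2. Serping1, the C1 inhibitor of complement, was 4.55, 4.52 and 4.54 in wt crypts, undetected, and 9.06 to 10.06 (median 9.79) in batch 1 ApcMin adenomas, a change of 5.18 ± 0.24 (adjusted p = 2.26e-09), at least 16.4-fold. Serpinh1 (Hsp47), a collagen chaperone that inhibits no protease, was 6.23, 5.08 and 5.96 in wt crypts, with 2 of 3 detected, and 10.59 to 11.34 (median 10.87) in adenomas. Its change was 5.16 ± 0.26 (adjusted p = 4.42e-09). Over the 12 crypt arrays it was uneven, from 4.60 to 6.97. The brightest probe of Serpinf1 (PEDF), likewise not an inhibitor, was undetected in crypts and rose by 3.12 ± 0.20 (adjusted p = 4.24e-08), at least 3.82-fold. A second Serpinf1 probe, with a cDNA accession, was detected on 2 of 3 wt crypt arrays and did not pass (-0.33, adjusted p = 0.123). Serpinf2, the alpha2-antiplasmin that blocks plasmin, was 6.19, 6.26 and 6.32 in wt crypts and 6.48 to 8.06 (median 7.33) in adenomas, and rose by 1.07 ± 0.27 (adjusted p = 0.00498). This call was lost without any 1 of the wt crypt arrays or ApcMin array 9 (adjusted p 0.0105 to 0.022).

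Adenomas were excised whole and crypts were dissociated epithelium, and markers of other cell types moved with these changes. Some lists were measured only in part, with 5 of 13 neutrophil, 6 of 13 lymphocyte and plasma cell and 4 of 9 hepatocyte genes. The counts here are of genes tested. Of the marker lists, 9 of 10 fibroblast genes (the other was lower), 8 of 8 endothelial, 6 of 6 smooth muscle, 7 of 8 macrophage, 5 of 6 mast cell, 3 of 6 lymphocyte and plasma cell, 4 of 4 neutrophil and 3 of 4 hepatocyte genes (Ttr, Hp and Trf) were higher in ApcMin adenomas, and the endothelial sum rose from 7.96 to 8.01 in wt crypts to 11.06 to 11.79 in batch 1 adenomas. The neutrophil sum was 7.07 to 7.22 in wt crypts and 8.98 to 9.45 in the adenomas, and the hepatocyte sum 12.40 to 12.84 and 12.63 to 13.36. Hp and Trf were undetected in wt crypts, so the hepatocyte sum there rested on the other listed genes. It is named for its list and does not measure hepatocyte content. Their part in the change of the inhibitor genes was not tested. In such bulk samples fewer cells of a type and less RNA per cell cannot be told apart.

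The genes that fell were the alpha1-antitrypsins and 2 intracellular serpins. Serpina1b was 9.23, 9.46 and 9.55 in wt crypts and between 9.22 and 9.82 on the other 9 crypt arrays. In batch 1 ApcMin adenomas it ran from 4.68 to 6.23 (median 5.12), detected only in replicate 1. It fell by 4.22 ± 0.28 (adjusted p = 5.06e-08). Serpina1d was 9.18, 9.17 and 9.26 in wt crypts and 4.38 to 6.01 (median 4.95) in adenomas. It fell by 4.10 ± 0.27 (adjusted p = 5.66e-08). In the batch 2 ApcMin adenomas Serpina1b stood at 6.58, 6.86 and 7.01 and Serpina1d at 6.55, 6.62 and 6.69, detected on all 3 arrays. Whether this differs from the batch 1 adenomas by tumour or by batch cannot be told apart. Serpina1c fell by 1.56 ± 0.13 (adjusted p = 6.57e-07), at least 1.89-fold. The brightest Serpina1a probe was not tested here, and its second probe, detected on 1 of 3 wt crypt arrays and on no adenoma, was lower (-0.87, adjusted p = 0.000659). Serpina1e, at -1.19 ± 0.44, did not pass (adjusted p = 0.0355).

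Serpinb1a and Serpinb6a, intracellular inhibitors of leukocyte proteases such as elastase and cathepsin G, were detected on all 32 arrays. Serpinb6a was 13.32, 13.63 and 13.27 in wt crypts and 12.56 to 12.89 (median 12.67) in batch 1 ApcMin adenomas, and fell by 0.70 ± 0.14 (adjusted p = 0.00073). Its second probe, with a cDNA accession, did not pass. Serpinb1a fell by 0.64 ± 0.18 (adjusted p = 0.00933), a call lost on leaving out any of 9 of the 12 arrays (kept without ApcMin 1, 2 or 8). Serpinb11 and Serpinb6b were undetected in crypts and rose by 1.56 ± 0.29 and 1.07 ± 0.21 (adjusted p = 0.000621 and 0.000941), at least 1.18-fold for Serpinb11 and without a bound above 1 for Serpinb6b. Both stayed dim, Serpinb11 at 5.37 to 7.12 (median 5.78) and Serpinb6b at 5.04 to 6.04 (median 5.71) in batch 1 adenomas.

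**Figure D2:**
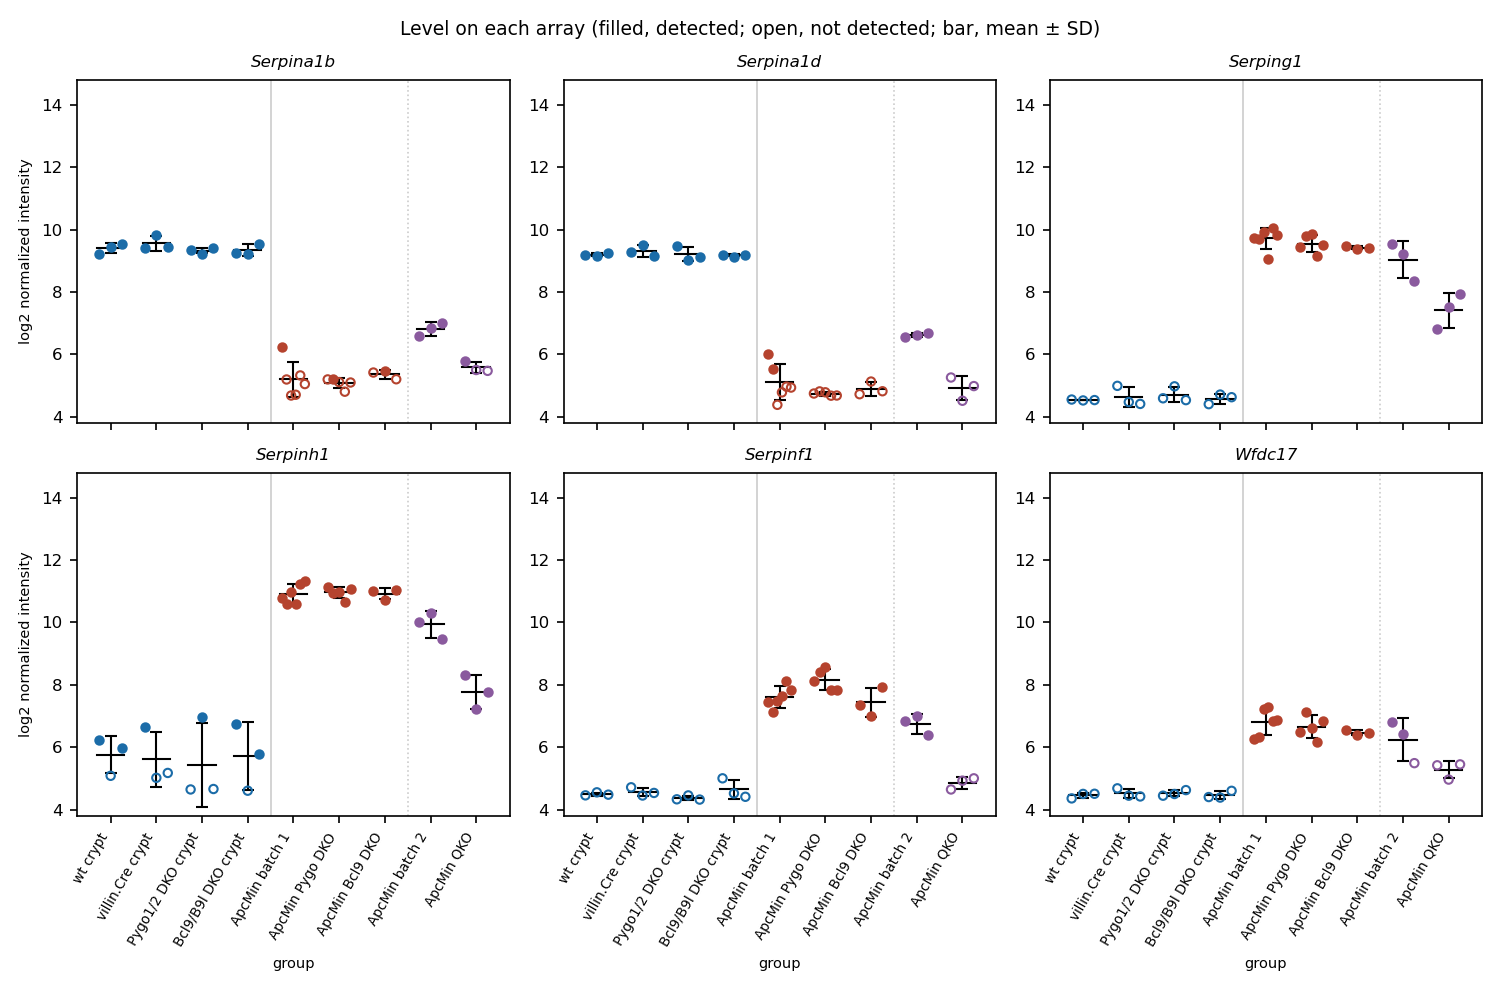
Log2 normalised intensity of 6 genes on each array, by group (blue, crypts; red, batch 1 adenomas; purple, batch 2 adenomas); filled points are detected, open points are not, and bars give the mean ± SD. Serpina1b and Serpina1d fell from above 9 in crypts to near background in batch 1 adenomas and were detected on all 3 batch 2 ApcMin arrays, while Serping1, Serpinh1 and Serpinf1 were bright in adenomas and lower in QKO.

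The question next is how the DKO adenomas differed from this ApcMin adenoma profile. The Pygo1/2 DKO adenomas gave no call. Of the 24 genes tested, 0 passed adjusted p under 0.01 (limma), against 0.17% of all probes. An unadjusted p under 0.05 was reached by 5 genes (Serpina5, Serpinb1a, Serpinb6b, Serpinf1 and Slpi), a count without a share of all probes beside it. All 24 overlapped between the groups, where 0.784% of all probes lay wholly higher and 1.08% wholly lower. Serpina3n was 10.80, 11.61, 12.98, 11.48 and 12.26 in Pygo1/2 DKO adenomas, a difference from ApcMin of 0.29 with a 95% interval from -0.66 to 1.24. For Wfdc18 (12.65, 13.25, 13.37, 13.61 and 13.21) the difference was 0.20 (-0.27 to 0.68), and for Wfdc2 0.44 (-0.29 to 1.18). These intervals do not show that the levels were the same.

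In Bcl9/B9l DKO adenomas Serpina3n, Serpinf2 and Serpinb11 were lower and Serpina10 was higher than in ApcMin adenomas. These were 3 lower and 1 higher of the 28 genes tested, where 2.31% of all 18990 probes were called (1.56% lower, 0.753% higher). The median change over the 28 genes was -0.28, beside 0.03 over all probes. Serpina3n was 7.71, 6.95 and 7.47 in Bcl9/B9l DKO adenomas, detected on all 3 arrays, above every crypt array and below every ApcMin array. It fell by 4.16 ± 0.48 (adjusted p = 0.000251), which is 17.9-fold. Without array 1 it fell by 4.32 (adjusted p = 0.00107), without array 3 it fell by 4.21 (0.00207), and without both, on replicate 2 alone with its spread taken from the other groups, it fell by 4.58 (0.0148), no longer past the threshold.

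Serpinf2 was 5.30, 5.35 and 5.53 in Bcl9/B9l DKO adenomas, below all ApcMin adenomas and also below all 12 crypt arrays, of which the lowest was 6.08. It fell by 1.93 ± 0.28 (adjusted p = 0.00128), with a change of -1.89 without array 1 and of -1.97 without arrays 1 and 3, where the adjusted p was 0.0548. The other 2 probes of Serpinf2 moved in the same direction without passing (-1.07 and -0.95, adjusted p = 0.023 and 0.0336). Serpinb11 was undetected on all 3 arrays (4.42, 4.48 and 4.36), and fell by 1.50 ± 0.30 (adjusted p = 0.00969), at least 1.42-fold. Its call was kept in only 2 of the 12 fits that left out 1 array (ApcMin 1 or 3).

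Serpina10, which inhibits coagulation factor Xa with protein Z as cofactor, was the member that rose. It was 5.11, 5.66 and 6.04 in Bcl9/B9l DKO adenomas, the last 2 detected, and undetected on all 6 batch 1 ApcMin arrays (4.44 to 4.70, median 4.50). The rise was 1.08 ± 0.20 (adjusted p = 0.00687), at least 1.16-fold. It kept its call only without ApcMin 4, ApcMin 8 or Bcl9/B9l DKO 1. Leaving out arrays 1 and 3 gave a rise of 1.13 (adjusted p = 0.0508).

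Wfdc18 and Slpi were lower on every Bcl9/B9l DKO array than on any batch 1 ApcMin array but did not pass. Wfdc18 was 11.97, 11.94 and 11.75, a difference of -1.12 (95% interval -1.66 to -0.59, adjusted p = 0.0165). Slpi was 8.81, 8.99 and 9.35, a difference of -1.23 (-1.81 to -0.65, adjusted p = 0.0155). Non-overlap of this direction was seen for 6.5% of all probes. Wfdc2 (8.77, 7.74 and 8.68) overlapped with ApcMin, with a difference of -1.11 (-1.96 to -0.25). Serpinh1, the collagen chaperone, was 11.01, 10.72 and 11.03, with an interval of the difference from -0.46 to 0.47.

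Serpini2, a serpin of the exocrine pancreas, was detected on a single array of the series, Bcl9/B9l DKO adenoma 1, at 5.60, which was also the array with the highest pancreatic acinar sum (17.48). On Bcl9/B9l DKO arrays 2 and 3 it was 4.39 and 4.32. Array 3, with an acinar sum of 14.81, showed no signal. Mast cell transcripts moved with the Bcl9/B9l DKO: 4 of 6 mast cell genes were lower, and their sum was 8.06 to 8.27 against 10.59 to 12.13 in batch 1 ApcMin adenomas, with Cpa3, Tpsb2 and Fcer1a undetected. Of 6 lymphocyte and plasma cell genes, 3 were lower. No neutrophil gene of 4, macrophage gene of 8 or hepatocyte gene of 4 passed, but their sums lay wholly lower, at 8.40 to 8.55 against 8.98 to 9.45 for neutrophils, 11.21 to 11.41 against 11.59 to 11.96 for macrophages and 12.08 to 12.37 against 12.63 to 13.36 for hepatocytes. The fibroblast sum was 13.11 to 13.33 against 12.99 to 13.65. It was 11.79 to 12.18 in wt crypts, where 8 of the 10 genes were undetected, and so does not measure stroma alone. The part of these listed transcripts, or of the cells they are named for, in the values of Serpina3n, Serpinf2, Serpinb11, Slpi and Wfdc18 was not tested.

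**Figure D3:**
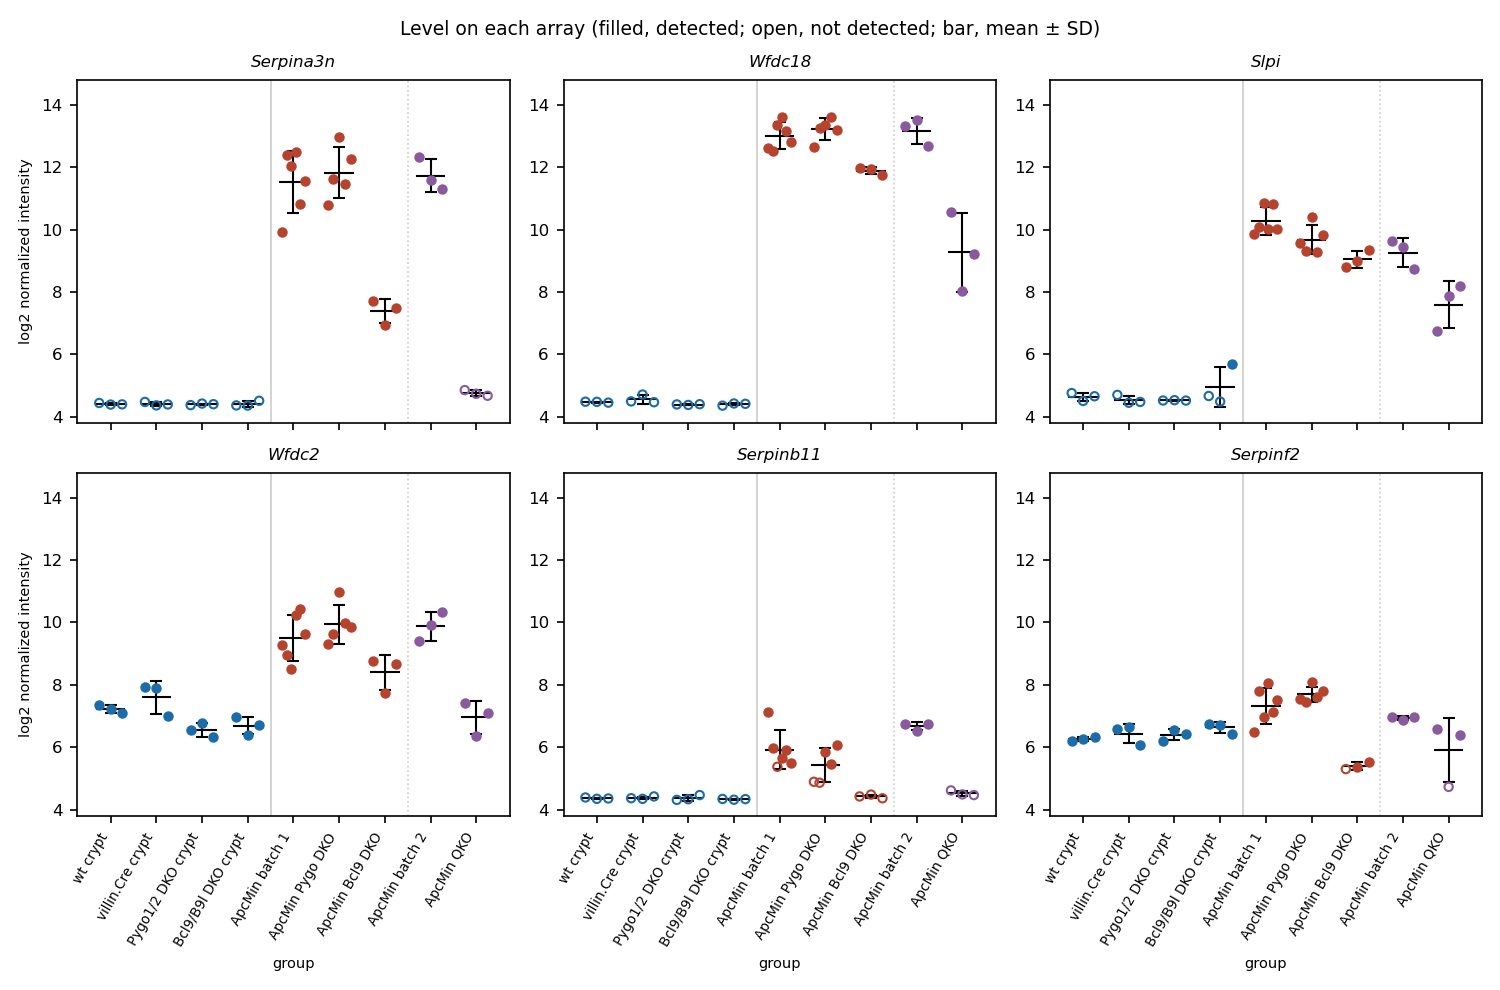
Log2 normalised intensity of 6 genes on each array, by group (blue, crypts; red, batch 1 adenomas; purple, batch 2 adenomas); filled points are detected, open points are not, and bars give the mean ± SD. Serpina3n stood at 9.93 and above in ApcMin and Pygo1/2 DKO adenomas, at 6.95 to 7.71 in Bcl9/B9l DKO and undetected in QKO, whereas Wfdc18 remained detected in QKO at 8.02 to 10.55.

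The QKO adenomas, labelled as lacking both Pygo and both Bcl9 paralogs but with higher Bcl9 and Bcl9l signals than their controls, were set against the ApcMin adenomas of their own batch. Of 27 genes tested, 8 were lower and 1 was higher, where 4.41% of all 19189 probes were called (3.11% lower, 1.3% higher). The median change was -0.59, beside 0.03 over all probes. Serpina3n was 12.32, 11.58 and 11.29 in batch 2 ApcMin adenomas and 4.85, 4.74 and 4.67 in QKO adenomas, where no array detected it. It fell by 6.98 ± 0.54 (adjusted p = 6.83e-06), at least 72.3-fold. The 12 crypt arrays, in the other batch, likewise had no detected signal.

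Wfdc18 was 13.31, 13.50 and 12.69 in batch 2 ApcMin adenomas and 10.55, 8.02 and 9.23 in QKO adenomas, all of them detected. It fell by 3.90 ± 0.49 (adjusted p = 0.000241), or 14.9-fold. Wfdc2 was 9.40, 9.90 and 10.32 in ApcMin and 7.40, 6.37 and 7.11 in QKO, and fell by 2.92 ± 0.45 (adjusted p = 0.00112). Slpi was 9.63, 9.43 and 8.73 in ApcMin and 6.75, 7.87 and 8.18 in QKO. Its difference of -1.66 (95% interval -2.48 to -0.85) did not pass (adjusted p = 0.0132). Wfdc15b was uneven in QKO (7.90, 4.47 and 7.34) and did not pass either (adjusted p = 0.0868).

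Serpinb11 was detected on all 3 batch 2 ApcMin arrays (6.75, 6.51 and 6.76) and on no QKO array (4.61, 4.48 and 4.46). It fell by 2.15 ± 0.34 (adjusted p = 0.00137), at least 2.17-fold. Serpina10 was the gene that was higher, as it was in Bcl9/B9l DKO: it was 6.67, 6.48 and 5.37 in QKO, detected on 2 of 3 arrays, against 4.38, 4.86 and 5.13 in ApcMin. The rise was 1.38 ± 0.28 (adjusted p = 0.00724), at least 1.53-fold, and kept its call only without ApcMin 1, ApcMin 8 or QKO 3.

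Among the alpha1-antitrypsins, Serpina1d was 5.26, 4.51 and 4.98 in QKO, undetected, and fell by 1.70 ± 0.34 (adjusted p = 0.00581), at least 2.09-fold, a call lost without ApcMin 4, 6 or 8 or QKO 2 or 3. The brightest Serpina1b probe, at 5.78, 5.50 and 5.47 in QKO, did not pass (-1.24, adjusted p = 0.0264), while its other 2 probes fell by 1.84 and 2.09 (adjusted p = 0.000119 and 8.8e-05), at least 2.56-fold and 3.07-fold.

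Of the other serpins, Serpinh1, Serpinf1 and Serping1 fell too. Serpinh1 was 10.03, 10.30 and 9.48 in batch 2 ApcMin and 8.32, 7.21 and 7.79 in QKO, and fell by 2.16 ± 0.30 (adjusted p = 0.000457). Its second, dimmer probe was undetected on all arrays of both groups, so no fall could show there. The brightest Serpinf1 probe was 6.85, 6.99 and 6.38 in ApcMin and undetected in QKO (4.64, 4.93 and 5.00), and fell by 1.88 ± 0.24 (adjusted p = 0.000274), at least 2.27-fold. The second Serpinf1 probe was detected on 1 of 3 arrays of each group, at means of 5.45 in QKO and 5.27 in ApcMin. Serping1 was 9.52, 9.22 and 8.37 in ApcMin and 6.80, 7.51 and 7.92 in QKO, and fell by 1.63 ± 0.34 (adjusted p = 0.00762), a call kept only without ApcMin 5, 7 or 8 or QKO 3.

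Mast cell transcripts and part of the stromal transcripts were lower in QKO. The fibroblast sum was 11.18 to 11.34 in QKO and 11.77 to 12.33 in batch 2 ApcMin adenomas. In wt crypts, of the other batch, it was 11.79 to 12.18 with 8 of the 10 genes undetected. The sum therefore does not measure stroma alone. Of the 10 fibroblast genes, 2 (Col1a1 and Dcn) were lower, and Col1a1, Col1a2, Col3a1, Lum and Pdgfrb were undetected on all QKO arrays. The smooth muscle sum was 10.06 to 11.70 against 11.87 to 12.24, with 0 of 6 genes called. The macrophage sum was 10.04 to 10.41 against 10.41 to 10.85, with 1 of 8 macrophage genes lower. Other sums overlapped and had no gene called. These were the endothelial (10.13 to 10.49 against 10.42 to 10.59), neutrophil (7.40 to 9.00 against 8.45 to 9.20) and lymphocyte and plasma cell sums (8.35 to 9.37 against 8.90 to 10.02). Of 6 mast cell genes 5 were lower, with sums of 7.89 to 8.30 against 9.52 to 11.65. The hepatocyte sum was 11.39 to 11.74 against 12.05 to 12.16, with 1 of 4 genes lower (Trf). Their part in the falls of Serpinh1, Serpinf1, Serping1, Serpina3n and Wfdc18 was not tested.

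**Figure D4:**
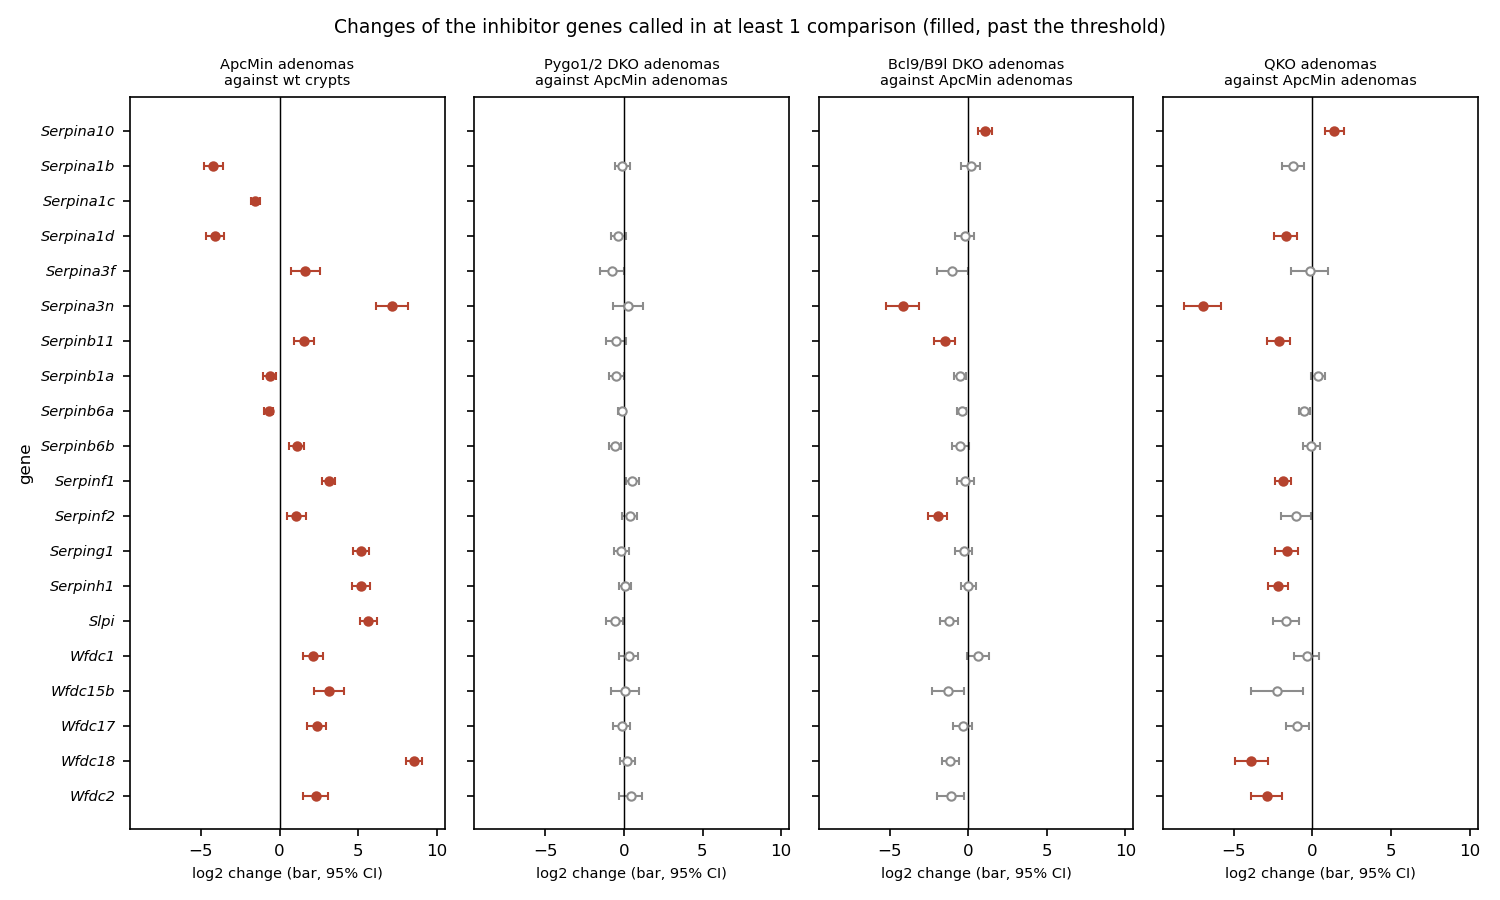
Log2 change with its 95% confidence interval for each of the 20 genes called in at least 1 comparison (rows), in ApcMin adenomas against wt crypts and in the 3 knockout adenoma groups against ApcMin adenomas of the same batch (panels); filled red points passed adjusted p under 0.01, open grey points did not, and genes not tested have no point. Serpina3n reaches 7.13 in the first panel, -4.16 in Bcl9/B9l DKO and -6.98 in QKO. The last 3 panels share ApcMin arrays as controls with the first.

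Set directly against each other, Bcl9/B9l DKO adenomas had lower Serpina3n and Serpinf2 than Pygo1/2 DKO adenomas, 2 of 24 genes tested (0.662% of all probes called, 0.464% lower). Serpina3n fell by 4.45 ± 0.41 (adjusted p = 0.000314) and Serpinf2 fell by 2.30 ± 0.19 (adjusted p = 0.000112), with no overlap for either gene (5.44% of all probes lay wholly lower). Serpinf2 was 7.56, 7.46, 8.08, 7.60 and 7.79 in the Pygo1/2 DKO adenomas. Wfdc18 missed the threshold (-1.33, adjusted p = 0.0114). Without Bcl9/B9l DKO arrays 1 and 3 the differences of Serpina3n and Serpinf2 were of like size (-4.88 and -2.34) but at an adjusted p of 0.0149.

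QKO adenomas share no batch with the DKO adenomas, so these pairs were compared through the ApcMin arrays of both batches. Against Pygo1/2 DKO, 5 of 27 genes were lower in QKO and none was higher (2.39% of all probes called, 1.91% lower): Serpina3n fell by 7.27 ± 0.71 (adjusted p = 1.57e-05), and the changes were -4.10 ± 0.56 for Wfdc18 (0.000277), -3.36 ± 0.58 for Wfdc2 (0.0018), -2.43 ± 0.31 for Serpinf1 (0.000159) and -2.21 ± 0.34 for Serpinh1 (0.000753). Serpina3n and Serpinf1 were undetected in QKO by these probes, so that their values are differences from background. The 2 dimmer Serpina1b probes were lower as well by the bridge (-1.75 and -2.04), their brightest probe not (adjusted p = 0.0807). The means of these 2 dimmer probes were near background in both groups, at 5.07 and 5.08 in QKO and 4.84 and 4.90 in Pygo1/2 DKO. Their bridged values therefore rest on the gap between the ApcMin batches. Against Bcl9/B9l DKO, no gene passed by its brightest probe, where 0.25% of all probes were called (0.179% lower). An unadjusted p under 0.05 was reached by 10 of 29 genes, a count without a share of all probes beside it. The 2 further Serpina1b probes gave bridged changes of -1.95 and -2.32 (adjusted p = 0.0034 and 0.00268), or -2.02 and -2.04 without Bcl9/B9l DKO arrays 1 and 3. Their means were alike in QKO (5.07 and 5.08) and Bcl9/B9l DKO (5.03 and 5.18), near background. These changes therefore come mainly from ApcMin means that were higher in batch 2 (6.91 and 7.17) than in batch 1 (4.93 and 4.96, undetected). Serpina3n differed by -2.82 (95% interval -4.27 to -1.36, adjusted p = 0.061) and Wfdc18 by -2.77 (-4.07 to -1.48, adjusted p = 0.0376). Serpinh1, the collagen chaperone, differed by -2.17 (-2.96 to -1.37, adjusted p = 0.0114).

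In crypts without adenoma, no member passed adjusted p under 0.05 in any of 3 comparisons (limma). At that adjusted threshold 0.169% of all probes were called in Pygo1/2 DKO against villin.Cre crypts. The share was 0.0635% in Bcl9/B9l DKO against villin.Cre crypts and 0.0258% in villin.Cre against wt crypts. An unadjusted p under 0.05 was reached by 1 of 11, 2 of 15 and 0 of 11 genes tested, in the same order. The share of all probes at that unadjusted threshold was not counted. Wfdc2 was among the genes that reached it in both knockouts, with Wfdc15b beside it in Bcl9/B9l DKO crypts. It was 7.92, 7.90 and 6.99 in villin.Cre crypts, 6.55, 6.77 and 6.32 in Pygo1/2 DKO crypts and 6.96, 6.40 and 6.71 in Bcl9/B9l DKO crypts. Its differences were -1.06 (95% interval -1.67 to -0.44, adjusted p = 0.118) and -0.91 (-1.56 to -0.26, adjusted p = 0.733), both against the same 3 control arrays. With the wt crypts added to the controls, Wfdc2 passed in Pygo1/2 DKO crypts (-0.87, adjusted p = 0.048). Wfdc15b was detected on all 3 Bcl9/B9l DKO crypt arrays (6.19, 5.93 and 6.07) and on no villin.Cre array (5.44, 5.32 and 5.06), a difference of 0.79 (0.40 to 1.18, adjusted p = 0.325), at least 1.28-fold. Serpina1b, Serpina1d, Serpinb1a and Serpinb6a were bright in all 4 crypt groups, and none of their intervals in the 3 comparisons went below -0.64 or above 0.54.

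Whether the difference of Bcl9/B9l DKO from its control in adenomas differed from that in crypts was tested as an interaction. Serpina3n (-4.16 ± 0.64, adjusted p = 0.00205) and Serpinf2 (-2.14 ± 0.39, adjusted p = 0.00873) passed among 31 genes tested, where 0.488% of all probes were called (0.391% lower). Serpina3n was undetected on every crypt array, so no fall could be seen there and its value restates the adenoma change. Serpinf2 was detected in them and was 6.76, 6.73 and 6.42 in Bcl9/B9l DKO crypts against 6.57, 6.65 and 6.08 in villin.Cre crypts. The Serpinf2 call held in only 4 of 18 fits that left out 1 array (ApcMin 1, 3, 5 or 7), and without Bcl9/B9l DKO arrays 1 and 3 the adjusted p was 0.0154 for Serpina3n and 0.0662 for Serpinf2. The same test for Pygo1/2 DKO gave no member of 26, where 0.0806% of all probes were called. At an unadjusted p under 0.05 stood 4 members, and the share of all probes at that threshold was not counted.

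The proteases these inhibitors act on, their receptors and other inhibitor families were read from lists. These held 28, 8 and 37 genes, of which 16, 7 and 14 were measured. Of the 16 genes measured from the target protease list, 8 were higher and 1 was lower in ApcMin adenomas than in wt crypts. The median change was 0.52, beside -0.08 over all probes, of which 38.3% were called. The 16 include Hgf, a growth factor and not an active protease. Plat, the tissue plasminogen activator, rose by 6.12 ± 0.25 (adjusted p = 7.38e-10), Htra1, a secreted serine protease, by 4.44 ± 0.22 (4.05e-09) and Plau, the urokinase, by 2.31 ± 0.27 (1.06e-05). All 3 were undetected in wt crypts, with bounds of at least 32.6-fold, 10.4-fold and 2.53-fold. F10, coagulation factor X, fell by 2.28 ± 0.12 (8.07e-09), at least 2.81-fold, and was undetected in batch 1 ApcMin adenomas. In Bcl9/B9l DKO adenomas, where 2.31% of all probes were called, 1 of 15 was lower, Plat, by 2.05 ± 0.28 (adjusted p = 0.000949), and 1 was higher, the membrane protease Tmprss2, by 0.83 ± 0.15 (0.00645). The median was -0.22, beside 0.03 over all probes. In QKO adenomas 4 of 15 were lower and none higher (median -0.47, beside 0.03 over all probes, of which 4.41% were called): Htra1 (-2.79), Plat (-2.40), Hgfac (-1.08) and the mast cell chymase Cma1 (-3.01, undetected in QKO, at least 3.88-fold). None of 15 passed in Pygo1/2 DKO adenomas.

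Of 6 receptors and partners tested, 3 were higher in ApcMin adenomas than in crypts (median 1.17, against 38.3% of all probes called and a median of -0.08): the thrombin receptor F2r by 5.15 ± 0.16, the urokinase receptor Plaur by 2.20 ± 0.31 and Lrp8 by 1.82 ± 0.12 (adjusted p = 6.93e-11, 5.79e-05 and 8.36e-08). F2r and Lrp8 were undetected in wt crypts, with bounds of at least 29.2-fold and 1.48-fold. None passed in the 3 knockout comparisons. Of 13 protease inhibitors of other families, 4 were higher (Cst3, Cstb, Itih3 and Reck, of which Itih3 was undetected in batch 1 adenomas and wt crypts alike and Reck in wt crypts; median over the list 0.02) and 3 were lower (Ambp, Spint1 and Spint2, the last 2 being Kunitz inhibitors of epithelial membrane proteases). Ambp fell by 1.52 ± 0.26, Spint2 by 0.93 ± 0.16 and Spint1 by 0.69 ± 0.12 (adjusted p = 0.000321, 0.000345 and 0.000355). Itih3 was lower in QKO, where it was undetected (-1.06, adjusted p = 0.00192, at least 1.04-fold), and none passed in either DKO.

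As a description over the 9 group means, with the ApcMin adenomas split by batch, the named genes most like Serpina3n were Faim2, Otop2, F5, Nfatc4 and Abcb1b (Pearson r 0.990 to 0.996), and those most like Wfdc18 were Frmd6, Nptx2, Slc45a3, Dennd5a and Rbms3 (r 0.998 to 0.999). The means share the step from crypts to adenomas. The remaining members stayed dim. Serpina1a, Serpina3j, Serpina5, Serpinb1c, Serpinb3c, Serpinb6c, Serpinb8, Serpinc1, Serpini2, Wfdc6a and Wfdc10 were each detected on at most 8 of 32 arrays and passed in no comparison by their brightest probe, and for these genes a change below the detection limit could not be seen.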

How the data were processed

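Total RNA of the 32 samples was hybridised by the authors to Illumina MouseWG-6 v2 beadchips, 1 sample per array. The deposited scanner table holds summarised bead intensity without background correction, exported with GenomeStudio 2011.1 per the labels, with a detection p-value per probe. The deposited value table holds log2 values that the authors had transformed and normalised, and was used only as an alternative. Intensities were background-corrected and quantile-normalised on the log2 scale with neqc of limma 3.58.1 (R 4.3.3; negative controls inferred from detection p-values, offset 16). Each comparison was fitted with limma (group means, batch term where both batches entered), and p-values were adjusted by Benjamini-Hochberg over all probes with detection p under 0.01 on 1 or more of its arrays, with thresholds of 0.01 (adenomas, interactions) and 0.05 (crypts). The authors' batch correction was not repeated. The fits were tested on simulated data.

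Genes are given by their brightest probe, and other probes where they differed. Array by array values cover, per subfamily, up to 6 genes with the largest called changes in adenomas. Members and lists were chosen with earlier results of these data known. Not all replicates are stated to be separate mice, and p-values then measure only the spread between these samples, which may be technical. The number of arrays limits precision. Replicate numbers were not taken to pair samples. Promoter windows and gene positions are RefSeq, GRCm38.p6.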

Additional observations from a re-analysis of the deposited data

Results flagged for a closer look

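The change in Bcl9/B9l DKO adenomas minus that in Bcl9/B9l DKO crypts passed the interaction test for Serpina3n and Serpinf2 (-4.16 and -2.14 on the log2 scale). Serpina3n was detected on no crypt array, so a fall there could not have been seen and the value restates the adenoma change. The Serpinf2 call held in only 4 of 18 fits that left out 1 array.

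Within the groups of 5 and 6 adenomas, 4 of 40 gene-by-group sets held 1 array whose gap to the nearest exceeded Dixon's limit, which chance does in about 1 in 20. Serpinb11 was 7.12 in batch 1 ApcMin replicate 1, where the others ran from 5.37 to 5.98. Serping1 was 9.06 in ApcMin replicate 5, where the others ran from 9.69 to 10.06. Serpina10 was 4.70 in ApcMin replicate 3, where the others ran from 4.44 to 4.53 and none was detected. Serpina1b was 4.80 in Pygo1/2 DKO replicate 4, where the others ran from 5.10 to 5.21.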

How the results depend on the processing

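Counts here are of member probes called. In the 12 comparisons the range on leaving out 1 array at a time was 20 to 27 (26 with all arrays) for ApcMin adenomas against wt crypts, 2 to 3 (4) for Bcl9/B9l DKO against ApcMin, 8 to 11 (11) for QKO against ApcMin, 2 to 3 (2) for Bcl9/B9l DKO against Pygo1/2 DKO, 1 to 4 (2) for QKO against Bcl9/B9l DKO, 7 to 10 (7) for QKO against Pygo1/2 DKO, 1 to 3 (2) for the Bcl9/B9l DKO interaction, and 0 to 0 for Pygo1/2 DKO against ApcMin, the 3 crypt comparisons and the Pygo1/2 DKO interaction. Restricting to probes detected in every array of a group gave 17 for ApcMin against wt crypts, 2 for Bcl9/B9l DKO and 6 for QKO against ApcMin, and 0 for QKO against Bcl9/B9l DKO; fewer probes were then tested. Without background correction Bcl9/B9l DKO against ApcMin gave 2 and its interaction 1, with the deposited log2 values 1 and 0, and with no filter 2 and 0, while Bcl9/B9l DKO against Pygo1/2 DKO gave 1 with no filter. One model over all 32 arrays gave 8 for Bcl9/B9l DKO against ApcMin, 7 against Pygo1/2 DKO and 5 for QKO against Bcl9/B9l DKO. Batch 1 alone gave 1 for the interaction, and both wild-type groups as control gave 1 for Pygo1/2 DKO crypts (Wfdc2). Batch 2 alone lost the QKO calls of Serping1 and Serpina10 (limma, adjusted p = 0.035 and 0.0513). Batch 1 alone lost Serpinb11 in Bcl9/B9l DKO against ApcMin adenomas (0.0231). It also lost Serpinf2 and Serpinb1a in ApcMin adenomas against wt crypts (0.0106 and 0.0123). Without the Bcl9/B9l DKO adenoma arrays 1 and 3, an alternative chosen after seeing the data, all 4 comparisons that used them gave 0. Other causes of these shifts were not tested.

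Replicate numbers were not taken to pair the samples, since in no comparison did every same-numbered pair of samples deviate together with r over 0.1. The lowest r of a comparison ran from -0.45 (villin.Cre against wt crypts) to 0.05 (QKO against Bcl9/B9l DKO). All such r were above 0 in the 3 QKO comparisons and in both DKO crypt comparisons, and for QKO against Bcl9/B9l DKO all (0.05 to 0.15) exceeded those of other pairs, a hint from the data only. With the replicate number as a block, ApcMin against wt crypts gave 20, Bcl9/B9l DKO against ApcMin gave 0 (Serpina3n -4.07, adjusted p = 0.0426) and QKO against Pygo1/2 DKO gave 0; the block could not be fitted with the batch for both other QKO comparisons.

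Direction was followed for all called probes. In the unbridged knockout adenoma comparisons it was also followed for Serpina3n, Wfdc18, Slpi, Wfdc2, Wfdc15b, Serpinf2 and Serpinb11, and not for other uncalled members. Within this set it turned only for uncalled changes of Pygo1/2 DKO against ApcMin. Serpina3n (0.29) became -0.031 without ApcMin replicate 1, the lowest of -0.031 to 0.55 on leaving out 1 array. Wfdc15b (0.05) became -0.44 with the block, -0.09 and -0.22 without ApcMin replicates 7 and 9, and -0.27 without Pygo1/2 DKO replicate 3. Signal over background limits the dim members most, and small groups limit all.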
